A study of Oryzias latipes with 48 samples.

Results

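Growth hormone, prolactin and somatolactin are related pituitary hormones, and their genes were followed through the year in medaka (Oryzias latipes), a small freshwater fish. The 3 genes were taken as the table rows LOC101171460 (somatotropin, the growth hormone gene), LOC101172582 (prolactin-1, called prolactin here) and LOC100049402 (somatolactin), out of 26167 genes. All 3 passed the filter on low values, a mean of at least 1 FPKM (fragment counts corrected for transcript length and sequencing depth). RNA came from a tissue block of hypothalamus, pituitary and the ventral part of the telencephalon, of fish kept outdoors, in natural conditions, in Okazaki, Japan. There were 24 groups of 2 libraries each: 4 seasons (the equinoxes of spring and autumn, the solstices of summer and winter), each at clock hours 2, 6, 10, 14, 18 and 22. The labels give no strain, sex, age or number of fish per library, and name no treatment other than season and hour.

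The 3 hormones descend from a common ancestral gene and are made by separate cells of the fish pituitary, somatolactin in the intermediate lobe. Growth hormone drives body growth, in large part through insulin-like growth factors. Prolactin lets fish hold ions in fresh water, and somatolactin, found in fish, acts on skin pigment cells, which are altered in medaka that lack it. Their receptors belong to the cytokine receptor class and signal through JAK2 and STAT5, with SOCS proteins as feedback inhibitors. Growth hormone is released under hypothalamic control by GHRH and PACAP and held back by somatostatin, and dopamine holds back prolactin.

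Several features of the series touch every value below. Season was the main axis, and 90.9% of the 16622 genes tested differed between any seasons. The samplings span 2 calendar years, and the labels give no year or library batch for a season, so an effect of season and one of batch cannot be told apart. The labels do not say whether the libraries are of different fish, so the p-values speak only of library-to-library spread, which may be technical. The table holds no read counts, so the depth is unknown and no counting interval is given. FPKM sums lay between 314605 and 359311 per library, with 23521 to 23943 genes above 0. Over all tested genes, 3 spring libraries (the first of hour 2, the first of hour 18 and library 2 of hour 22) stood apart on the second principal component, the second main axis of difference between libraries. They lay at 21.1, 29.6 and 24.3 on it, and the other spring libraries at 2.49 to 13.9. On the first component they lay at -25.5, -21.4 and -26.2, in or close to the range of the others (-29.5 to -23.5). These 3 were picked after seeing the data. In a bulk block, fewer cells of a type and less RNA per cell cannot be told apart, and the share of the block that is pituitary may differ between libraries. As a rough measure of that share, the mean log2(FPKM + 1) of 5 genes for pituitary transcription factors was taken, pou1f1 among them and none a hormone gene. It was 2.90 ± 0.10 in spring, 2.61 ± 0.13 in summer, 2.78 ± 0.16 in autumn and 2.67 ± 0.13 in winter (SD, n = 12 libraries each). The 5 genes did not move as one. For summer minus winter 1 was higher and 3 lower (limma, adjusted p below 0.05), a contrast in which 74.9% of all genes passed. For spring minus winter 3 were higher and 1 lower, where 49.4% of all genes passed.

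The hormone genes were among the most abundant transcripts of the block. By mean FPKM over 48 libraries, growth hormone ranked 4, prolactin 7 and somatolactin 319 among all genes. Together they made up 1.59 ± 0.29% of the FPKM sum in spring, 0.973 ± 0.139% in summer, 1.15 ± 0.20% in autumn and 1.02 ± 0.23% in winter (SD, n = 12 each). Growth hormone ranked 2 in spring, 9 in summer, 7 in autumn and 3 in winter. Prolactin ranked 7 in spring, 4 in summer, 4 in autumn and 13 in winter, so the more abundant of the pair changed with the season. Somatolactin ranked 226, 210, 392 and 646 in spring, summer, autumn and winter. A second prolactin gene, prl, was listed close to 0, with season means of 0.027 FPKM in spring, 0.265 in summer, 0.224 in autumn and 0.020 in winter, and was not tested.

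**Figure D1:**
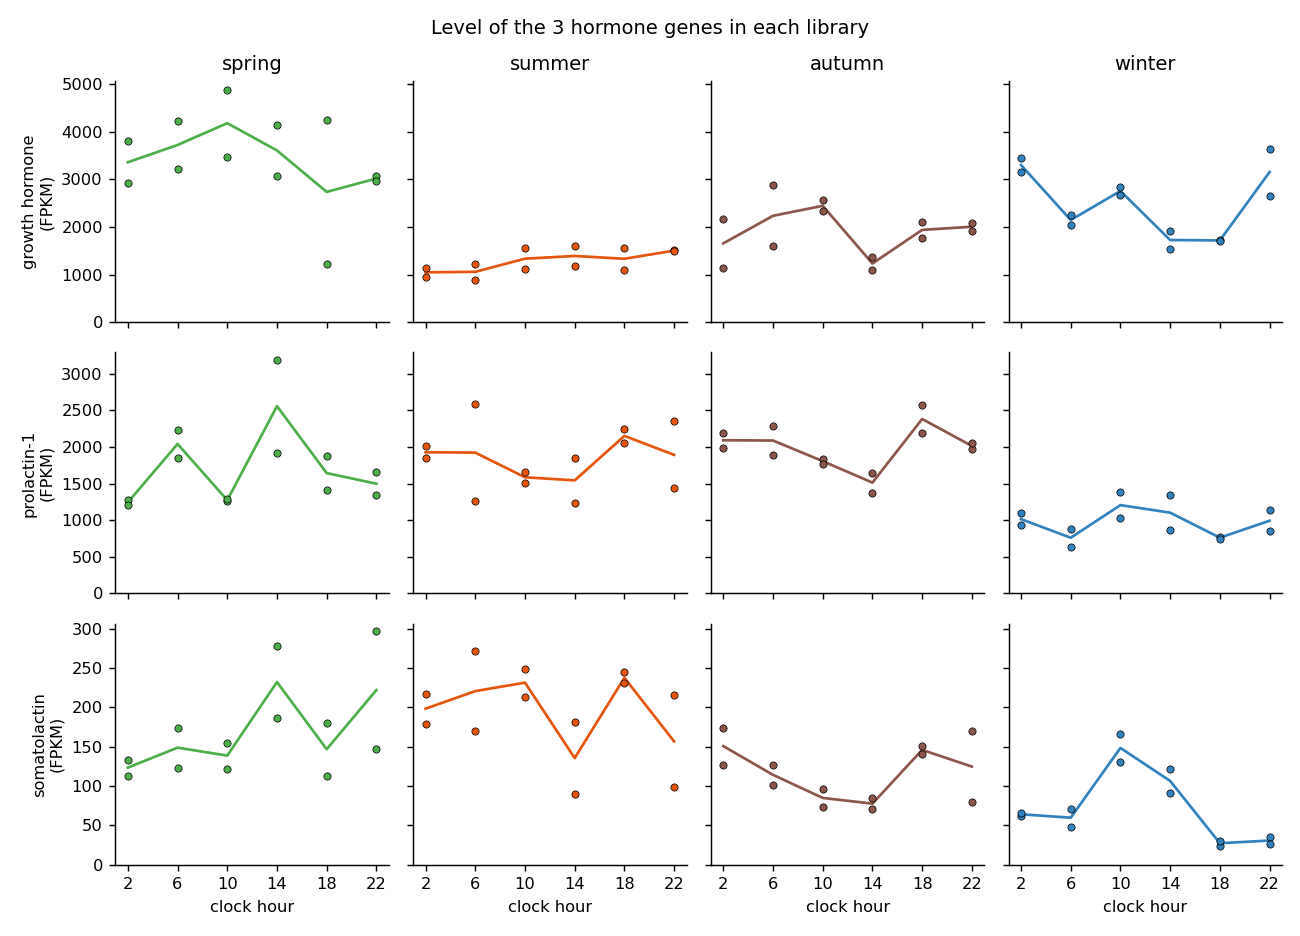
Level in FPKM (vertical axis, from 0, its own scale in each row) of growth hormone, prolactin-1 and somatolactin against clock hour, with 1 column per season. Points are libraries and lines join the means of the 2 libraries. By season mean, growth hormone is lowest in summer, and prolactin and somatolactin are lowest in winter. Winter somatolactin peaks at clock hour 10, where it lies above autumn.

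Growth hormone was highest in spring and lowest in summer, and all 6 season pairs were called (adjusted p below 0.05, limma with Benjamini-Hochberg adjustment over 16622 genes). Its lowest, median and highest libraries were 1233, 3351 and 4884 FPKM in spring, 896, 1200 and 1600 in summer, 1098, 2005 and 2878 in autumn, and 1535, 2459 and 3648 in winter. None of the 12 summer libraries reached the spring or the winter median (0 of 12 each). Of the 12 summer libraries, 9 lay below all winter libraries, and of the 12 spring libraries, 11 lay above all autumn libraries. The spring exception, clock hour 18 library 1 at 1233 FPKM, is among the 3 that stood apart. Season means were 3437 ± 936 FPKM in spring, 1277 ± 254 in summer, 1919 ± 553 in autumn and 2467 ± 712 in winter (SD, n = 12 each).

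On the log2(FPKM + 1) scale, growth hormone was 2.62-fold lower in summer than in spring (log2 difference -1.39, SE 0.15, adjusted p = 1.9e-09). It was 1.89-fold lower in summer than in winter (-0.92, SE 0.15, adjusted p = 2.5e-06) and 1.78-fold higher in spring than in autumn (0.83, SE 0.15, adjusted p = 1.2e-05). The smaller steps were 1.47-fold higher in autumn than in summer (0.55, adjusted p = 0.0034), 1.38-fold higher in spring than in winter (0.47, adjusted p = 0.01) and 1.29-fold higher in winter than in autumn (0.37, adjusted p = 0.028). The share of all tested genes called was 73.8% for summer against spring, 74.9% for summer against winter, 72.4% for spring against autumn, 43.6% for autumn against summer, 49.4% for spring against winter and 71.7% for winter against autumn, so a call as such was common. By size, 0.86% of genes had a larger difference between summer and spring, 4.4% between summer and winter, and 29.5% between winter and autumn. The scale shrinks differences of low genes, so such shares by size, here and below, favour abundant genes. The winter step over autumn was lost when any of 6 libraries was left out (autumn clock hour 2, 6, 14 or 18 library 1, winter clock hour 14 or 22 library 1), with log2 differences of 0.29 to 0.34 and adjusted p of 0.051 to 0.081. Without the 3 spring libraries that stood apart, the lower summer level against spring was -1.57 (adjusted p = 4.5e-11). With the pituitary measure as a covariate, the autumn step over summer (0.38, adjusted p = 0.14) and the spring step over winter (0.24, adjusted p = 0.41) were no longer called. With a red blood cell measure as a covariate, the spring step over autumn was 1.08 (SE 0.45, adjusted p = 0.072) and that over winter 0.58 (SE 0.24, adjusted p = 0.09). The winter step over autumn was then 0.50 (SE 0.28, adjusted p = 0.13). All of these were no longer called, with larger differences and wider errors than without that covariate (SE 0.15). The spring step over winter was 0.14 (adjusted p = 0.4) after quantile normalization. That method sets a value by its rank within the library, and growth hormone ranked 2 in spring and 3 in winter by mean.

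Prolactin stood apart in winter. Its lowest, median and highest libraries were 1213, 1532 and 3195 FPKM in spring, 1242, 1846 and 2587 in summer, 1379, 1985 and 2577 in autumn, and 638, 910 and 1383 in winter. Of the 12 winter libraries, 11 lay below all autumn libraries, and 10 of the 12 summer libraries lay above all winter libraries. Means were 1711 ± 574 FPKM in spring, 1839 ± 433 in summer, 1984 ± 314 in autumn and 974 ± 231 in winter (SD, n = 12 each). Prolactin was 1.88-fold higher in summer than in winter (log2 0.91, SE 0.11, adjusted p = 3e-08), 2.06-fold lower in winter than in autumn (-1.04, adjusted p = 3.1e-09) and 1.73-fold higher in spring than in winter (0.79, adjusted p = 2.6e-06). Of all genes, 74.9% were called for summer against winter, 71.7% for winter against autumn and 49.4% for spring against winter. By size, 4.54%, 2.03% and 0.602% of genes had a larger difference in these pairs.

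The other 3 seasons were close to each other in prolactin. Summer and spring differed by 0.13 on the log2 scale (95% interval -0.10 to 0.36, adjusted p = 0.31), and autumn and summer by 0.13 (95% interval -0.10 to 0.36, adjusted p = 0.37), and neither was called. The summer level was higher than that of spring with the pituitary measure as a covariate (0.53, adjusted p = 0.013) and after quantile normalization (0.37, adjusted p = 0.0081). The latter sets a value by its rank within the library, and prolactin ranked 7 in spring and 4 in summer by mean. Prolactin was 1.2-fold lower in spring than in autumn (-0.26, SE 0.11, adjusted p = 0.042), a call lost when any of 16 single libraries was left out (-0.26 to -0.20, adjusted p up to 0.12). Those libraries were spring clock hours 2 and 10 (both), 6, 14, 18 and 22 (library 2), and autumn clock hours 10 and 22 (both), 6 (library 1), 2, 14 and 18 (library 2).

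Somatolactin, the least abundant of the 3, had the widest difference between summer and winter. Its lowest, median and highest libraries were 113, 151 and 297 FPKM in spring, 90.2, 214 and 272 in summer, 70.7, 114 and 174 in autumn, and 24.1, 64.2 and 166 in winter. Of the 12 summer libraries, 10 lay above all winter libraries. Somatolactin was 3.06-fold higher in summer than in winter (log2 1.61, SE 0.15, adjusted p = 1.5e-10) and 2.62-fold higher in spring than in winter (1.39, SE 0.15, adjusted p = 3.8e-08). It was 1.68-fold lower in autumn than in summer (-0.75, adjusted p = 0.00025), 1.82-fold lower in winter than in autumn (-0.86, adjusted p = 1.2e-05) and 1.44-fold higher in spring than in autumn (0.53, adjusted p = 0.003). The winter step below autumn is a mean over hours and did not hold at each hour. At hour 10 winter had 166 and 131 FPKM, against 73.4 and 96.4 in autumn. At hour 14 winter had 91.0 and 122 FPKM, against 84.6 and 70.7 in autumn. At the other hours every winter library lay below every autumn library of that hour. Summer and spring differed by 0.22 (95% interval -0.09 to 0.54, adjusted p = 0.18), which was not called, but was without clock hour 14 (0.43, adjusted p = 0.019). The shares of all genes called in each pair are those given for growth hormone. By size, 0.0842% of tested genes had a larger difference between spring and winter, and 0.523% between summer and winter. The share was 0.74% between autumn and summer, 3.87% between winter and autumn and 16.1% between spring and autumn. Part of the winter level sits in 2 clock hours: without winter hours 18 and 22 the difference was 1.09 for summer against winter, 0.86 for spring against winter (adjusted p = 0.00032), both still called, and -0.34 for winter against autumn (adjusted p = 0.085). In that fit the other seasons kept hours 18 and 22, so the hours were not matched. The 2 hours were picked with the values known. The spring step over autumn was no longer called without clock hour 14 (0.32, adjusted p = 0.078). Nor was it with a red blood cell measure as a covariate (0.54, SE 0.46 against 0.15 without it, adjusted p = 0.42).

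**Figure D2:**
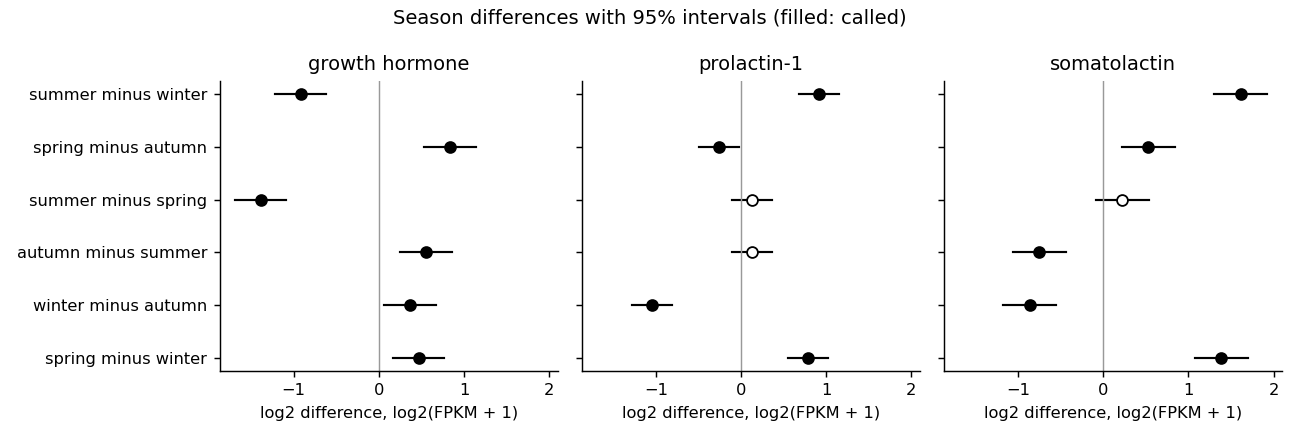
Fitted season differences on the log2(FPKM + 1) scale (horizontal axis) for each season pair (rows), with 95% intervals as lines and filled points for adjusted p below 0.05. Summer minus winter lies at -0.92 for growth hormone, 0.91 for prolactin and 1.61 for somatolactin.

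For summer against winter, growth hormone was lower in summer while prolactin and somatolactin were higher. For spring against winter all 3 were higher in spring. For the mean of summer and autumn minus the mean of spring and winter, a contrast in which 79.4% of genes were called, growth hormone was at -0.88 (SE 0.10, adjusted p = 1.1e-08), prolactin at 0.59 (SE 0.08, adjusted p = 1.4e-07) and somatolactin at 0.54 (SE 0.11, adjusted p = 4.2e-05). With the red blood cell measure as a covariate, prolactin (0.47, SE 0.29, adjusted p = 0.21) and somatolactin (0.53, SE 0.39, adjusted p = 0.29) were not called for it, with wider errors.

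The balance of the hormones was also taken within each library, where scaling between libraries cancels. The ratio of growth hormone to prolactin had a lowest, median and highest value of 0.655, 2.18 and 3.79 in spring, 0.346, 0.747 and 1.06 in summer, 0.569, 0.899 and 1.52 in autumn, and 1.43, 2.65 and 3.68 in winter. All 12 summer ratios lay below all 12 winter ratios, and 11 of 12 winter ratios lay above all autumn ratios. Of all single genes, 74.9% were called for summer against winter and 71.7% for winter against autumn. How many genes or ratios of other genes also lacked overlap was not counted. In spring, the libraries below 1 were clock hour 18 library 1 at 0.655, one of the 3 that stood apart, and clock hour 14 library 1 at 0.963. The ratio of growth hormone to somatolactin had a median of 22.0 in spring, 6.57 in summer, 15.6 in autumn and 48.7 in winter. Prolactin per somatolactin had a median of 10.3 in spring, 9.39 in summer, 17.6 in autumn and 16.2 in winter, with 10 of 12 autumn ratios above all summer ratios. Winter was the most variable season for both somatolactin ratios, from 12.6 to 105 for growth hormone and from 7.10 to 32.6 for prolactin. The ends were set by clock hour, with 12.6 to 21.7 for growth hormone per somatolactin at hours 10 and 14, and 55.5 to 105 at hours 18 and 22. Of the summed FPKM of the 3 genes, growth hormone held 64.0 ± 11.3% in spring, 39.1 ± 7.9% in summer, 47.1 ± 7.3% in autumn and 69.6 ± 6.3% in winter (SD, n = 12 each). These ratios are descriptions and were not tested.

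**Figure D3:**
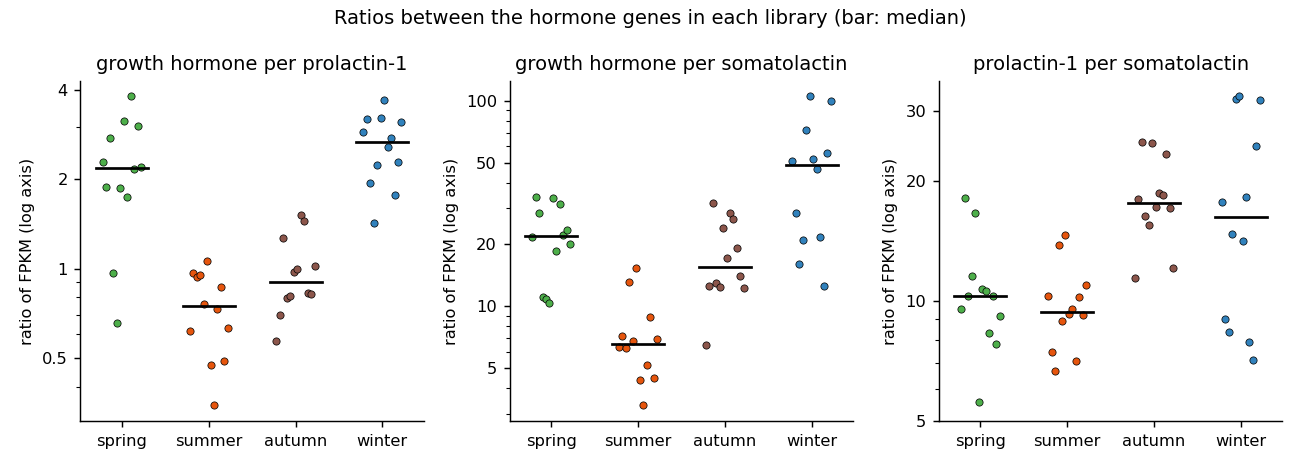
Ratio of FPKM between the hormone genes in each library (log axis) by season, with bars at the median. The growth hormone to prolactin ratio is 1.06 at most in summer and 1.43 at least in winter, and the ratios to somatolactin are widest in winter.

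A daily rhythm was called for 1 of the 12 gene and season combinations, somatolactin in winter. In winter, somatolactin was at 62.0 and 66.4 FPKM at clock hour 2, 71.0 and 48.5 at hour 6, 166 and 131 at hour 10, 91.0 and 122 at hour 14, 24.1 and 30.7 at hour 18, and 34.8 and 26.8 at hour 22. The 4 libraries of hours 10 and 14 were above the other 8, and the 4 of hours 18 and 22 were below the other 8. A 24 h cosine curve had an amplitude of 1.05 on the log2 scale (SE 0.19), a 4.28-fold range from trough to peak with the peak at hour 9.60 (adjusted p = 0.009), in a season in which 1.53% of genes were called rhythmic. A test of any shape over the 6 hours gave F = 12.9 (adjusted p = 0.00055; 2.78% of genes called). By size, 0.0902% of genes had a larger winter amplitude. Without winter clock hour 10 library 1 the amplitude was 0.96 (adjusted p = 0.062). Each season was sampled over a single day, so a trend across that day and a repeating rhythm cannot be told apart.

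In the other seasons no somatolactin rhythm was called. Amplitudes were 0.25 (SE 0.19) in spring, 0.17 (SE 0.19) in summer and 0.41 (SE 0.19, fitted peak at hour 23.6, adjusted p = 0.29) in autumn, in which 2.59%, 13.6% and 16.1% of genes were called. In autumn the levels at hours 10 and 14, 73.4 and 96.4 and then 84.6 and 70.7 FPKM, lay below the 127 to 174 FPKM of hours 2 and 18, while hour 22 had 79.4 and 170 FPKM. The curves differed between seasons (F = 5.57, adjusted p = 0.0047; 21.5% of genes called). Winter differed from autumn (F = 13.7, adjusted p = 0.0017; 10.2% of genes called), spring from winter (F = 9.004, adjusted p = 0.027; 5.21%) and summer from winter (F = 6.22, adjusted p = 0.047; 9.75%). The last was lost on leaving out any of 31 of the 48 libraries (F down to 4.61, adjusted p up to 0.12). The spring to winter difference was lost without spring clock hour 10 or 22 library 1, winter clock hour 10 library 1 or winter clock hour 22 library 2 (F = 6.44 to 7.69, adjusted p of 0.05 to 0.065). Spring against autumn (13.1% of genes called), summer against spring (9.70%) and autumn against summer (0.59%) were not called for somatolactin.

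Red blood cell genes moved with winter somatolactin. The summed FPKM of 5 red blood cell genes (3 hemoglobin genes, the erythroid ALAS gene LOC100049501 and the band 3 gene LOC101155769) in winter was 1181 and 1200 at hour 10, 1112 and 946 at hour 14, and 373 to 786 at the other hours. The 4 libraries with the most somatolactin were thus the 4 with the highest red blood cell sum. The 5 genes had fitted winter peaks between hours 9.98 and 10.8, and 1 of them was called (LOC101174997, amplitude 0.63, adjusted p = 0.048). With the mean log2 level of these genes as a covariate, the winter somatolactin amplitude was 0.75 (SE 0.20, adjusted p = 0.11), no longer called. This covariate was added after seeing the data. Its genes gb_101171201, LOC101155769 and LOC100049501 are among the 5 most like somatolactin with season means subtracted, so a smaller amplitude was likely beforehand. The difference of winter from autumn stayed called (F = 7.26, adjusted p = 0.033), while those of spring from winter (F = 3.30, adjusted p = 0.18) and of summer from winter (F = 4.46, adjusted p = 0.11) were no longer called. Under that covariate somatolactin was at 1.60 for summer minus winter (SE 0.34, adjusted p = 0.00032) and 1.39 for spring minus winter (SE 0.25, adjusted p = 0.00033), with wider errors than the 0.15 without it. Spring minus autumn (0.54, SE 0.46, adjusted p = 0.42) and the mean of summer and autumn minus that of spring and winter (0.53, SE 0.39, adjusted p = 0.29) were no longer called. Across seasons the red blood cell sum was 376 ± 88.6 FPKM in spring, 1633 ± 456 in summer, 1277 ± 274 in autumn and 773 ± 273 in winter (SD, n = 12 each). Somatolactin means in the same order were 169 ± 61.0, 197 ± 56.5, 116 ± 37.1 and 72.8 ± 46.0 FPKM. In the same winter libraries the pituitary measure was 2.77 and 2.68 at hour 2 and 2.33 and 2.68 at hour 6. It was 2.68 and 2.63 at hour 10 and 2.91 and 2.60 at hour 14. At hour 18 it was 2.64 and 2.65, and at hour 22 it was 2.75 and 2.72. The part of blood or of other cell types in the daily course was not tested further.

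**Figure D4:**
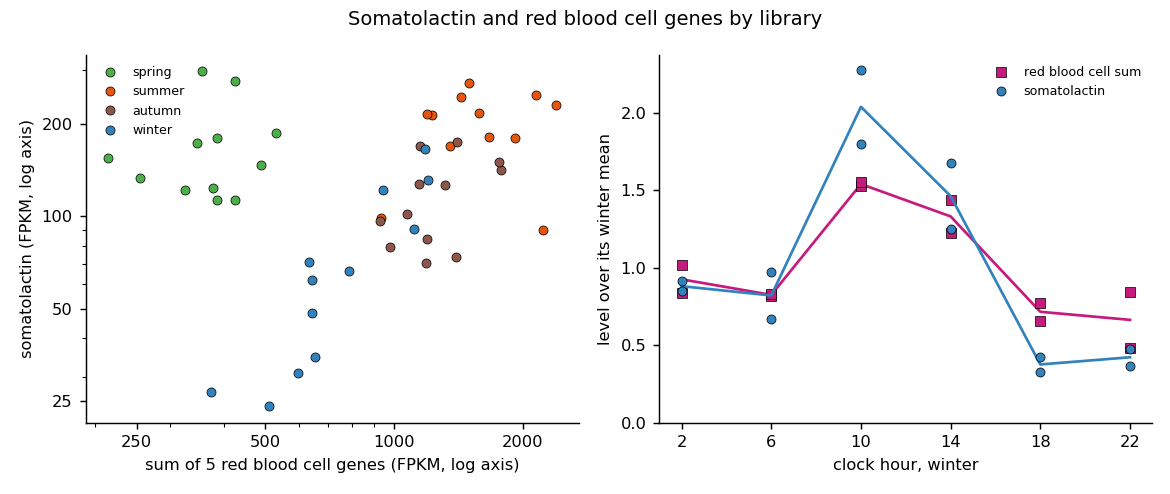
Left: somatolactin against the summed FPKM of 5 red blood cell genes, both on log axes, with 1 point per library coloured by season. Right: winter somatolactin and the winter red blood cell sum at each clock hour, each divided by its winter mean, with points for libraries and lines through means; both are highest at hour 10.

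Among other pituitary hormone genes of the same winter libraries, some were high at the same hours and others were not. pomc, the precursor of melanocortins and ACTH, had 532 and 387 FPKM at hour 10 and 154 to 256 at hours 2 and 6, but 280 to 342 at hours 18 and 22, where somatolactin was lowest. cga, the alpha subunit shared by gonadotropins and thyrotropin, had 404 to 618 FPKM at hours 10 and 14 and 235 to 356 elsewhere. LOC101171658 (thyrotropin subunit beta-like) had its highest mean at hour 22, with 33.7 and 27.7 FPKM, where somatolactin was low, and lhb, the luteinizing hormone beta subunit, had its highest mean at hour 18, with 7.99 and 9.06 FPKM. None of the 8 other pituitary hormone genes had a called winter rhythm (0 of 8, limma, adjusted p = 0.3 for pomc and 0.29 for cga). With 1.53% of all genes called in winter, that count is close to the share of all genes.

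Growth hormone and prolactin had no called rhythm in any season, nor a called difference in rhythm between seasons (8 cosine tests and 14 tests of a difference). The largest amplitude was that of growth hormone in winter, 0.40 (SE 0.16, limma, adjusted p = 0.3), with 3155 and 3448 FPKM at hour 2 and 3648 and 2659 at hour 22, against 1535 to 1915 at hours 14 and 18. These hours are those with the highest and the lowest means, picked with the values known. Hour 6 had 2033 and 2259 FPKM and hour 10 had 2672 and 2839. Over the 6 hours the limma test of any shape was not called either (F = 2.72, adjusted p = 0.27, with 2.78% of genes called). For prolactin in spring the test of any shape gave an adjusted p of 0.083 (6.28% of genes called), with 3195 and 1923 FPKM at hour 14 and 2238 and 1847 at hour 6, but 1262 and 1289 at hour 10 in between.

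Within a season, prolactin and somatolactin tended to be high in the same libraries, but no relation passed correction. Pearson's r between the 2 was 0.486 in spring, 0.734 in summer, 0.662 in autumn and 0.486 in winter, and Spearman's rho was 0.483, 0.769, 0.699 and 0.503 (permutation test, 12 libraries each). Over the 24 relations computed, the raw permutation p of r was 0.11, 0.00475, 0.0156 and 0.11 and the adjusted p 0.442, 0.057, 0.125 and 0.442 from spring to winter. For rho the raw permutation p was 0.117, 0.00491, 0.0133 and 0.0987, with adjusted p of 0.381, 0.118, 0.133 and 0.381. The permutations shuffled the 12 libraries freely, though they come in pairs from the same clock hour. Effects of hour that 2 genes share thus enter r, rho and these p-values. Without the 2 libraries farthest from the median of prolactin, r was 0.396, 0.646, 0.679 and 0.191. Growth hormone showed r between -0.203 and 0.444 with prolactin and between -0.212 and 0.17 with somatolactin, with adjusted p of r at 0.51 or more. The strongest relation with the pituitary measure was that of prolactin in winter (r = 0.742, rho = 0.685, adjusted permutation p = 0.057 and 0.133), which was 0.419 without the 2 libraries farthest from the median of that measure. In spring the relation of that measure with growth hormone, r = 0.158 (adjusted permutation p = 0.757), was -0.842 (adjusted permutation p = 0.0398) without the 2 farthest libraries.

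The genes whose log2 level over the 48 libraries was most like each hormone gene were named by Pearson's r, as a description, since season moves most genes together. For growth hormone they were pno1 (r = 0.832), the potassium channel subunit gene LOC101165505 (0.827), hinfp (0.813), c12h2orf42 (0.803) and LOC110014837 (0.801). For prolactin they were LOC101170974 (0.788), the syntaxin-binding protein 6 gene LOC101169654 (0.782), fgl2 (0.76), the secretagogin gene LOC101157482 (0.756) and ubp1 (0.746). LOC101169654 had season means of 50.2, 60.5, 78.0 and 25.03 FPKM in spring, summer, autumn and winter. For somatolactin they were LOC101157757 (0.709), hipk3 (0.708), cga (0.702), st6galnac4 (0.684) and prolactin (0.684). With each season's mean subtracted, growth hormone was most like LOC101165505 (0.68), tm9sf4 (0.654), fam46c (0.631), LOC101171040 (0.616) and pno1 (0.606). Prolactin was then most like LOC110015528 (0.677), taf6 (0.597), LOC110015530 (0.572), the synuclein gene LOC101170044 (0.569) and LOC110016563 (0.565). Somatolactin was most like the hemoglobin gene gb_101171201 (0.603), setd9 (0.585), LOC101155769 (0.579), LOC100049501 (0.547) and LOC101154856 (0.542), with prolactin next at 0.527. Growth hormone had r = 0.069 with prolactin and 0.0125 with somatolactin on that scale.

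Genes of factors that act on the release of these hormones were lower in spring than in winter, as were 5 of 11 markers of hypothalamic cells. All 10 tested of 11 releasing and inhibiting factor genes were lower in spring than in winter (0 higher). Their median log2 difference was -0.38, against -0.02 for all genes, of which 49.4% were called. Of all 16622 tested genes, 4670 were called lower in spring. Counts had been planned for summer against winter and for spring against autumn. The pair of spring and winter was singled out with the counts known. Of the 10 genes, 8 were lower under median-ratio scaling, 7 with the pituitary measure as a covariate and 9 without the 3 spring libraries that stood apart. Of the hypothalamic markers 1 was higher (median of the 11 -0.25), and their summed FPKM was 361 ± 61.1 in spring and 480 ± 45.6 in winter. Red blood cell markers had a median of -0.56 for the same pair, glial markers -0.08, telencephalic markers -0.02 and neuron markers -0.01. Myelin (0.16), microglial (0.13) and endothelial (0.12) markers had medians above 0. The part of these markers in the lower spring level was not tested. ghrh, the growth hormone releasing hormone, was at 3.31 ± 0.81 FPKM in spring and 4.52 ± 0.54 in winter (log2 -0.37, SE 0.08, adjusted p = 0.00033). LOC101165591 (glucagon family neuropeptides, the family of PACAP) was at 171 ± 11.9 FPKM in spring and 219 ± 14.4 in winter (-0.36, SE 0.03, adjusted p = 2.6e-09). The inhibiting somatostatins moved the same way: LOC101173302 was 1.58-fold lower (adjusted p = 3.3e-09), LOC101157910 1.59-fold lower (adjusted p = 0.00028) and LOC101158162 1.58-fold lower (adjusted p = 1.4e-05). th, which makes the precursor of dopamine, was 1.38-fold lower (adjusted p = 1.9e-05).

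Between summer and winter this list split, with 1 of the 10 higher in summer, 4 lower and 5 not called. That is 50% called, against 74.9% of all genes. The higher was vip, a peptide that stimulates prolactin release in birds and mammals, with 47.7 ± 5.2 FPKM in summer and 26.8 ± 4.2 in winter (log2 0.81, SE 0.06, adjusted p = 6.9e-13). Its order over the year, 23.6 in spring, 47.7 in summer, 33.1 in autumn and 26.8 in winter, differed from that of prolactin, which was lowest in winter. Lower in summer were LOC101157910, at 54.1 ± 14.5 against 84.3 ± 22.8 FPKM in winter (-0.62, adjusted p = 0.00021), gal (-0.36, adjusted p = 1.3e-05), LOC101165591 (-0.20, adjusted p = 2.9e-06) and th2 (-0.20, adjusted p = 0.02). Between spring and autumn 0 of the 10 were higher and 7 lower in spring (1 and 5 under median-ratio scaling), with LOC101158162 1.78-fold lower in spring (adjusted p = 6.9e-08). The 70% called was close to the 72.4% of all genes.

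Receptors changed by small steps. Of 17 tested of 22 receptor genes, summer exceeded winter in 5 and was below it in 5, and spring exceeded autumn in 5 and was below it in 5. The share called was 58.8% in each pair, below the 74.9% and 72.4% of all genes. Both growth hormone receptor genes had their highest mean in spring, as growth hormone did. ghr_100144349 was at 8.06 ± 1.27 FPKM in spring, 5.83 ± 1.21 in summer, 5.63 ± 0.90 in autumn and 5.90 ± 1.22 in winter (spring minus autumn 0.45, SE 0.04, adjusted p = 9.7e-11). ghr_100125809 was at 4.17 ± 0.59 FPKM in spring and 3.14 ± 0.43 in autumn (0.32, SE 0.04, adjusted p = 7.2e-08). The 4 prolactin receptor genes had mean levels between 0.923 and 3.66 FPKM and no common order: in summer against winter prlr (0.24, adjusted p = 9.9e-05) and LOC101158305 (0.58, adjusted p = 4.4e-08) were higher, LOC101171416 lower (-0.46, adjusted p = 1.2e-06) and LOC101164128 was not called (adjusted p = 0.93). ghrhr, the receptor for GHRH, had 7.25 ± 0.97 FPKM in summer, against 5.44 ± 0.44 in winter (0.35, adjusted p = 2.2e-06), opposite to growth hormone. The dopamine receptor gene drd2 was 1.15-fold lower in summer than in winter (adjusted p = 6.2e-06).

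Of 15 tested of 17 genes of JAK2, STAT5 and SOCS signalling, summer exceeded winter in 10 and was below it in 3, and spring exceeded autumn in 5 and was below it in 6. These are 86.7% and 73.3% called, against 74.9% and 72.4% of all genes. The widest difference was in LOC101165453, listed as SOCS1, a feedback inhibitor of cytokine receptors. It had 11.3 ± 4.0 FPKM in spring, 1.22 ± 0.43 in summer, 1.23 ± 0.26 in autumn and 9.44 ± 2.01 in winter. Every spring and winter library, at 5.79 FPKM or more, lay above every summer and autumn library, at 2.07 or less. Between these seasons 79.4% of all genes were called, and how many of them also lacked overlap was not counted. On the log2(FPKM + 1) scale LOC101165453 was 4.70-fold lower in summer than in winter (log2 -2.23, SE 0.12, adjusted p = 3.5e-16) and 5.29-fold higher in spring than in autumn (2.40, SE 0.12, adjusted p = 1.1e-16). The added 1 makes these folds smaller than the ratios of the FPKM means above. A second gene listed as SOCS1, socs1, had 1.51 ± 0.28 FPKM in summer, against 2.19 ± 0.44 in winter (-0.34, SE 0.06, adjusted p = 1.2e-05). cish, which growth hormone and prolactin induce in mammals, was lowest in winter, at 4.81 ± 1.04 FPKM against 6.44 ± 0.98 in autumn (winter minus autumn -0.37, adjusted p = 0.00012). The SOCS2 gene LOC101164124, the most abundant of the list, was 1.2-fold higher in summer than in winter (67.3 ± 8.7 and 55.9 ± 6.7 FPKM, adjusted p = 0.00025).

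In the insulin-like growth factor system, 12 of 18 genes were tested, with summer above winter in 6 and below it in 5, and spring above autumn in 5 and below it in 6. In each pair 91.7% were called, against 74.9% and 72.4% of all genes. igf1, the main mediator of growth hormone in the liver, averaged 0.20 to 0.31 FPKM in this block and was not tested. igf2 was lowest in winter, at 12.4 ± 1.4 FPKM in summer and 8.05 ± 1.56 in winter (log2 0.58, SE 0.05, adjusted p = 2.5e-12). Among binding protein genes, igfbp2 was at 8.47 ± 0.99 FPKM in spring and 15.0 ± 2.4 in autumn (-0.74, adjusted p = 4.8e-11), while the IGFBP1 gene LOC101165969 (0.71, adjusted p = 2.5e-08) and the IGFBP3 gene LOC101166253 (0.53, adjusted p = 2e-06) were higher in spring.

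Of 19 tested of 22 pituitary factor genes, the summer level was higher than that of winter in 4 and lower in 11, and the spring level higher than that of autumn in 9 and lower in 5. Called shares were 78.9% and 73.7%, close to the 74.9% and 72.4% of all genes. For spring against autumn the counts were 11 higher and 4 lower under median-ratio scaling, and 6 higher and 7 lower with the pituitary measure, itself made of 5 genes of this list, as a covariate. For summer against winter they were 5 higher and 8 lower with that covariate. pou1f1, required in mammals for growth hormone, prolactin and thyrotropin cells, was at 19.5 ± 2.8 FPKM in spring, 14.2 ± 3.2 in summer, 15.2 ± 3.3 in autumn and 12.3 ± 1.8 in winter. It was 1.54-fold higher in spring than in winter (log2 0.63, SE 0.08, adjusted p = 5.1e-07) and 1.2-fold lower in winter than in autumn (-0.27, adjusted p = 0.0044), while summer minus winter was 0.17 (adjusted p = 0.058). LOC101166980 (pituitary homeobox 3) had its means in the season order of growth hormone, with 7.33 ± 0.72 FPKM in spring, 3.20 ± 0.45 in summer, 4.75 ± 0.83 in autumn and 5.58 ± 0.69 in winter (summer minus spring -0.99, SE 0.06, adjusted p = 4.1e-15). gata2, a factor of thyrotropin and gonadotropin cells in mice, had 1.08 ± 0.22 FPKM in summer and 3.93 ± 0.83 in spring (-1.23, SE 0.09, adjusted p = 3.4e-13).

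Of the 8 other pituitary hormone genes, 4 had more transcript in summer than in winter and 2 had less, and 3 had more in spring than in autumn and 4 had less. As shares, 75% and 87.5% were called, against 74.9% and 72.4% of all genes. LOC101171658 (thyrotropin subunit beta-like), a hormone subunit of other cells that need pou1f1 in mammals, had its lowest mean in winter, as prolactin and somatolactin did, at 56.1 ± 22.6 FPKM in spring, 37.6 ± 12 in summer, 53.4 ± 6.7 in autumn and 23.4 ± 5.8 in winter (winter minus autumn -1.19, SE 0.15, adjusted p = 3.1e-08). A lowest mean in winter was also found in cga (355 FPKM, against 375 in autumn) and lhb (7.14, against 8.85 in spring). Growth hormone was lowest in summer, fshb in autumn and pomc in spring. cga was 2.18-fold higher in summer than in winter (adjusted p = 4.3e-12). pomc was lower in spring than in autumn, at 212 ± 48.5 FPKM in spring and 581 ± 208 in autumn (-1.43, SE 0.13, adjusted p = 4.8e-11).

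**Figure D5:**
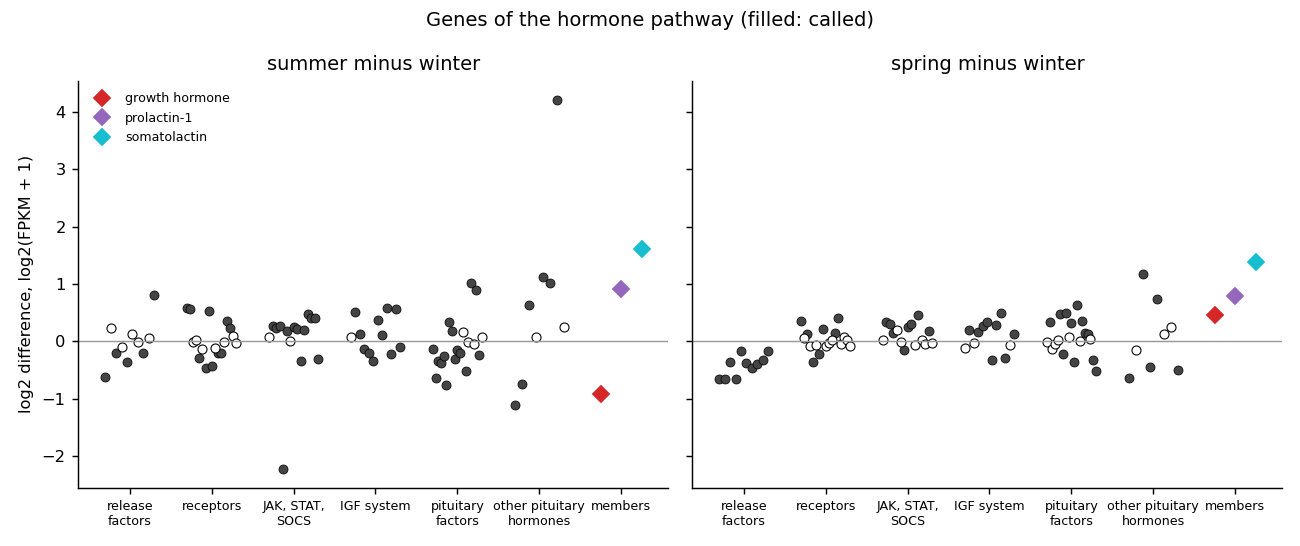
Season differences on the log2(FPKM + 1) scale (vertical axis) for tested genes of 6 lists and for the 3 hormone genes (diamonds), for summer minus winter and spring minus winter. Circles are genes, filled where adjusted p is below 0.05; all 10 release factor genes lie below 0 for spring minus winter, and for summer minus winter the lowest circle is LOC101165453 at -2.23 and the highest lhb at 4.22.

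Over the 6 lists, 60 of 81 tested genes (74.1%) were called for summer against winter, 30 in each direction, which is close to the 74.9% of all genes. For spring against autumn 27 were higher and 33 lower, again 74.1%, against 72.4% of all genes. For spring against winter 29 were higher and 22 lower, 63.0% against 49.4% of all genes. Markers of other cells moved with the seasons too, as values beside the levels above. The median log2 difference, summer minus winter, was 0.30 for 8 neuron markers, 0.13 for 11 hypothalamic markers, 0.24 for 5 telencephalic markers and 0.84 for the 5 red blood cell markers. It was 0.78 for 5 myelin markers, 0.22 for 4 glial, 0.25 for 4 endothelial and -0.26 for 5 microglial markers. All 8 neuron and all 11 hypothalamic markers were above 0 in every library, while the 3 retina markers had a mean sum of 0.944 to 2.32 FPKM per season. The part of these shifts in the levels of the hormone genes was not tested, beyond the covariates given above.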

How the data were processed

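RNA-seq libraries (poly-A selected, strand-specific, paired-end) of 48 samples were analysed from 1 table of FPKM values per gene, deposited by the authors. Bowtie2 2.2.5 and RSEM 1.2.12 were used, per the submitters' processing notes. No label or header names a build or an annotation: not given in the sources used here. RSEM shares reads between similar genes by estimation, which limits near-identical copies, and FPKM holds no depth. Product names come from the table. Groups follow the treatment label, 2 libraries for each of 24 season and hour groups.

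Values were taken as log2(FPKM + 1), with genes at a mean of at least 1 FPKM tested. limma 3.58.1 in R 4.3.3 was fitted to the 24 groups (24 residual degrees of freedom), with season contrasts as means over the 6 hours, and to a 24 h cosine per season (36 residual degrees of freedom). P-values were adjusted by Benjamini-Hochberg over 16622 genes and called below 0.05. Fold changes on this scale understate the change of low genes, so ranks by size of difference or amplitude favour abundant genes such as the members. The fits were tested on simulated data. The members and gene lists were chosen with earlier results of these data known. Named genes are the members, a related prolactin gene, members of the lists, and the 5 genes most like each hormone gene by Pearson's r over the 48 libraries, with and without season means. The list genes singled out were picked with their values known. Not every gene of the lists is reported here by name. Alternatives were another pseudocount, filter, scaling, array weights, a replicate block, covariates and left-out libraries or hours.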

Additional observations from a re-analysis of the deposited data

Results flagged for a closer look

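The daily course of somatolactin differed between seasons by a test of the difference itself (limma, cosine terms by season, adjusted over 16622 genes). Over all seasons F was 5.57 (adjusted p = 0.0047). Winter differed from autumn with F = 13.7 (adjusted p = 0.0017), with a winter peak at hour 9.60 and an autumn fitted peak at hour 23.6. Spring differed from winter with F = 9.004 (adjusted p = 0.027) and summer from winter with F = 6.22 (adjusted p = 0.047). Amplitudes were 0.25 in spring, 0.17 in summer, 0.41 in autumn and 1.05 in winter on the log2 scale, and winter alone was called. Each season is a single day of 12 libraries, and red blood cell genes were high at the same winter hours. With their level as a covariate, F was 2.90 over all seasons (adjusted p = 0.071), 3.30 for spring against winter (adjusted p = 0.18) and 4.46 for summer against winter (adjusted p = 0.11), while winter against autumn stayed called (F = 7.26, adjusted p = 0.033). This covariate was added after seeing the data, and some of its genes are among those most like somatolactin. The call for summer against winter was lost on leaving out any of 31 of the 48 libraries.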

How the results depend on the processing

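No called season or rhythm result changed direction under an alternative. Among results that were not called, prolactin autumn minus summer was -0.11 with either pituitary covariate, and prolactin summer minus spring was -0.03 with the red blood cell covariate. The calls for growth hormone in summer against winter and summer against spring, prolactin in summer against winter, winter against autumn and spring against winter, and somatolactin in summer against winter, autumn against summer and spring against winter kept their side of the threshold under all alternatives run. Where others changed, the cause was not tested. Values below are log2 differences, tested on the adjusted p.

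Growth hormone, winter minus autumn, was no longer called with no filter (0.37, adjusted p = 0.05), quantile normalization (0.27), and without clock hour 2 (0.23), 14 (0.34) or 22 (0.31). Spring minus winter was lost with quantile normalization (0.14), the pituitary covariate (0.24) and without hour 14 (0.35), and autumn minus summer with the pituitary covariate (0.38). Prolactin, spring minus autumn, was lost with no filter (-0.26), median-ratio scaling (-0.16), array weights (-0.26) and without hour 2 (-0.16), 10 (-0.21), 18 (-0.20) or 22 (-0.22). Prolactin, summer minus spring, became called with quantile normalization (0.37), the pituitary covariate (0.53) and without hour 14 (0.30). Somatolactin without hour 14 lost spring minus autumn (0.32) and gained summer minus spring (0.43), which also passed without hour 22 (0.37).

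Added after seeing the data were 4 alternatives. Without the 3 spring libraries that stood apart, prolactin spring minus autumn was lost (-0.27). With the pituitary measure without pou1f1 as a covariate, growth hormone lost autumn minus summer (0.44) and spring minus winter (0.39), and prolactin gained summer minus spring (0.44). Without winter hours 18 and 22, which the other seasons kept, somatolactin winter minus autumn was lost (-0.34). With the red blood cell measure as a covariate, growth hormone lost spring minus autumn (1.08, SE 0.45), winter minus autumn (0.50, SE 0.28) and spring minus winter (0.58, SE 0.24). Without it the SE was 0.15. Under the same covariate prolactin lost spring minus autumn (-0.12, SE 0.34) and the mean of summer and autumn minus that of spring and winter (0.47, SE 0.29). Somatolactin lost the same pair of results (0.54, SE 0.46, and 0.53, SE 0.39). The winter rhythm of somatolactin (amplitude 0.75) and its difference between any seasons (F = 2.90) were lost too.

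Leaving out each of the 48 libraries in turn, growth hormone winter minus autumn lay between 0.29 and 0.44 and prolactin spring minus autumn between -0.32 and -0.20. The winter amplitude of somatolactin lay between 0.96 and 1.18, and F between 6.44 and 12.3 for spring against winter and between 4.61 and 8.69 for summer against winter. The depth is unknown, so no limit by depth can be given.

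With the title number as a replicate block, prolactin spring minus autumn (-0.26, adjusted p = 0.13) and somatolactin spring minus autumn (0.53, adjusted p = 0.077) were no longer called. The title numbers follow clock hour, and this fit has no term for an hour effect that differs between seasons. Such differences between hours count as spread in it, apart from any pairing of libraries. Over 36 pairs of same-numbered libraries the correlation of deviations was -0.163 to 0.293 (median -0.0055, 6 above 0.1). Those at hour 18 were all positive (0.0448 to 0.197). With 2 libraries per group, this check showed no pairing common to all hours but cannot exclude pairing of some libraries.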
